A study of Mus musculus with 2 samples.

Results

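The smooth muscle contractile apparatus was followed here as 31 genes, of 27998 genes in the files, that were listed by name and traced from smooth muscle cells through transitional cells and proliferating stroma to fibroblasts, to see which are lowest first. All 31 were matched by symbol and had transcripts in vascular smooth muscle cells (VSMC) of both libraries. The cells came from abdominal aortas of wild-type C57BL/6J mice, dissociated 2 weeks after an injection into the peritoneum of either LCWE, the Lactobacillus casei cell wall extract that causes a vasculitis modelling Kawasaki disease, or PBS, the saline vehicle. The LCWE library held 1 pool of 7 aortas and the PBS library 1 pool of 9. Each group is thus 1 library without a replicate, so no test between groups was made, and every interval given here is a 95% interval that covers counting error only. Strain, genotype and time were the same in both groups.

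Smooth muscle contracts when calcium and calmodulin activate myosin light chain kinase, which phosphorylates the regulatory light chain so that smooth muscle myosin pulls on actin filaments. The filaments are anchored in dense bodies inside the cell and in adhesion plaques at the membrane, and myosin phosphatase reverses the light chain phosphorylation. In arteries these genes are driven largely by serum response factor (SRF) with its coactivator myocardin, and they are known to fall when a smooth muscle cell gives up its contractile state.

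SRF binds a 10-base element called the CArG box. It was sought in the windows from 250 bases before to 50 bases after each annotated start site. Stretches around the boxes are shown for the genes whose stretch overlaps no annotated exon. RefSeq windows (GRCm38.p6) were matched for 27 of the 31 genes, and Myh11, Tagln, Myocd and Actg2 were not matched. A CArG box, searched on both strands with overlaps allowed, lay in a window of 6 genes (Myl9, Cnn2, Myl6, Vcl, Ldb3 and Srf), which is 22.2% of the matched ones, and in 7 of their 35 windows (20%). Among all windows of the same length 1.63% held one. In the lines that follow the capitals mark the boxes. Myl9 is shown at chr2:156775268-156775347 on the plus strand, Vcl at chr14:20929148-20929215 on the plus strand and Srf, which has 2 boxes, at chr17:46556180-46556279 on the minus strand. All 3 stretches lie upstream of the gene's start and overlap no annotated exon.
Myl9: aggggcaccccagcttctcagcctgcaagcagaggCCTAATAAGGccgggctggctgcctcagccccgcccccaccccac
Vcl: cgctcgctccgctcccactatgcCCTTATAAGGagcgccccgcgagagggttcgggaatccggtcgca
Srf: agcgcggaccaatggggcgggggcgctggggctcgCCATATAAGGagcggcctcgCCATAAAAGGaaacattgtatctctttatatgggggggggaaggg
A match describes these letters and not a bound site, and the absence of one says only that the letters are not in these windows. The genes with a box did not keep to 1 end of the order described below. In transitional cells Myl9 stood at 16.4% of its level in LCWE VSMC, Ldb3 at 28.1% and Myl6 at 41.2%. Vcl stood at 46.3%, Srf at 56.8% and Cnn2 at 103.2%.

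Cell classes are the names the authors gave to their clusters. Those clusters were built from the same transcriptomes, so differences between classes are descriptions, and the classes are not a time course. The LCWE library held 93 VSMC, 283 cells named as transitional between VSMC and fibroblast, 41 proliferating stromal cells and 813 fibroblasts. The PBS library held 4141 VSMC and 868 fibroblasts, and 8 cell barcodes occurred in both libraries. Levels are given as CPM, the unique molecular identifiers (UMIs, a tag on each transcript captured) of a gene per 1000000 UMIs of the whole class. A gene is called lower or higher where the ratio of 2 classes is at least 2-fold and its interval excludes 1. Median UMIs per cell were 11880.0 in PBS VSMC, 8547 in LCWE VSMC, 19942 in transitional cells, 26038 in proliferating stroma and 11494 in LCWE fibroblasts. A lower CPM can therefore go with an equal number of transcripts per cell, and both readings are given where they differ. Transitional cells carried the fibroblast markers Dcn, Lum, Pdgfra, Col1a1, Col1a2, Pi16 and Dpt at a summed 29956 CPM, against 3435 in LCWE VSMC and 43478 in LCWE fibroblasts, so the class held transcripts of both types, as its name says.

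Some cells went against their label. Of the 93 LCWE VSMC, 14 had less than 1% of their UMIs in the 31 genes, and 10 of these 14 carried at least 2 lymphocyte markers. Acta2 stood at 232.4 CPM in these 14 cells and at 22568 in the other 79. Neutrophil markers summed to 257.5 CPM in LCWE VSMC and 2.54 in PBS VSMC, and the T and NK markers to 101.8 and 0.505. These sums were not particular to VSMC. In the LCWE library neutrophil markers had 358.3 CPM in fibroblasts and 180.6 in endothelial cells, and T and NK markers 22.8 and 73.1. A further 27 of the 93 cells and 1018 of the 4141 PBS VSMC carried at least 2 of the markers Kcnj8, Abcc9, Higd1b and Vtn. They are called pericyte-like here, but this count alone does not show that they were mislabelled. The pericyte gene Higd1b had a UMI in 6 of 227 PBS VSMC with a Pln UMI and in 9 of 3914 without. In LCWE VSMC it had a UMI in 6 of 28 and 8 of 65 such cells. Among the 41 proliferating cells, 6 had 10 or more UMIs of the endothelial gene Pecam1.

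The whole apparatus took 8.34% of the UMIs of PBS VSMC, 7.46% of those of LCWE VSMC, 2.25% in transitional cells, 0.953% in proliferating stroma and 0.196% in LCWE fibroblasts. PBS fibroblasts had 0.275%. Lymphocytes, which do not build a contractile apparatus, had 0.193% under LCWE and 0.322% under PBS. Their share is no measure of free RNA for the whole set, since widely used genes make up most of it: of the LCWE lymphocytes' UMIs, Myl6 took 1060 CPM, Cnn2 276.0 and Flna 178.1.

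**Figure D1:**
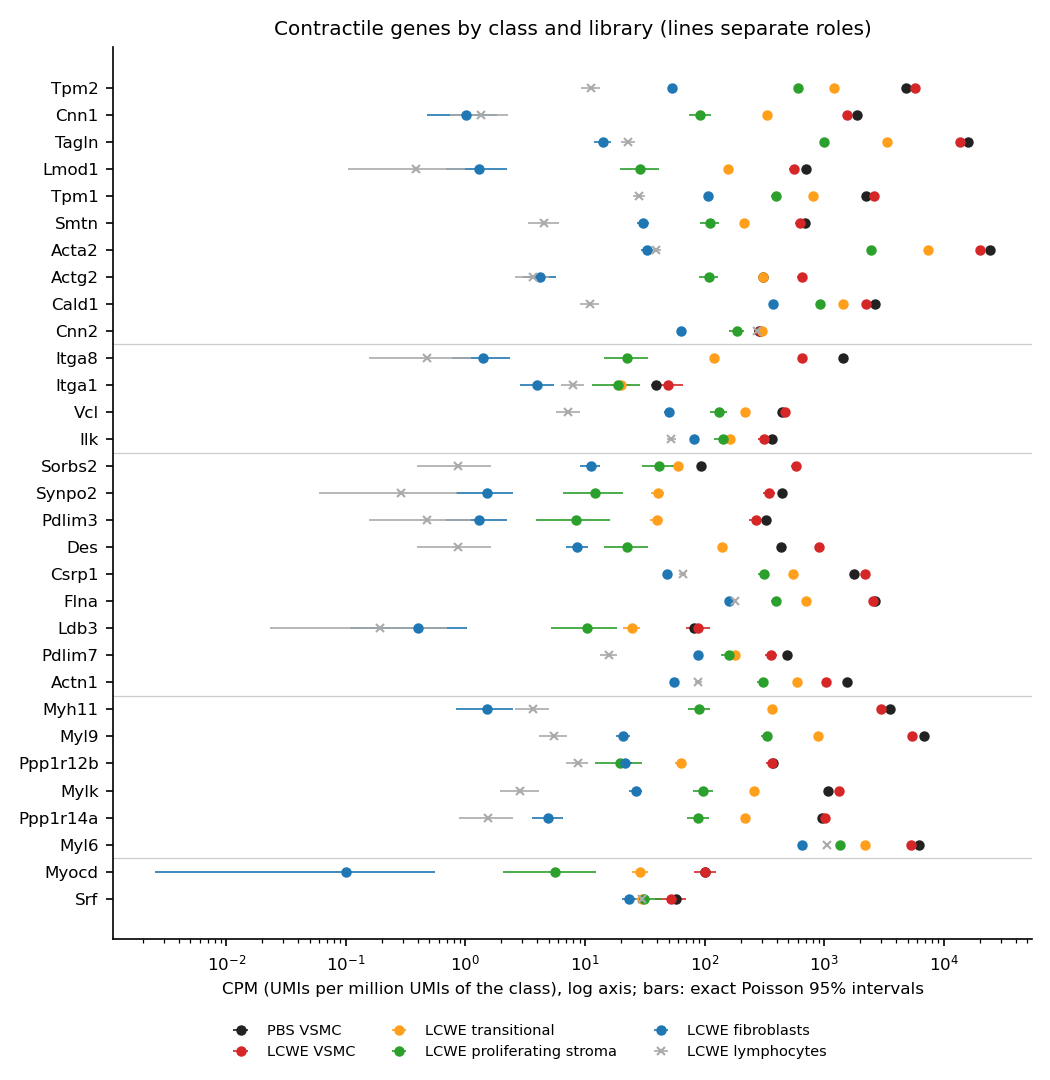
Level of each of the 31 genes (rows, grouped by role) in CPM on a log axis, in 6 classes; points are class sums and bars exact Poisson 95% intervals. The order PBS or LCWE VSMC, transitional cells, proliferating stroma and fibroblasts runs from right to left for most genes, with Acta2 from 24435 CPM in PBS VSMC to 33.0 in LCWE fibroblasts, while Cnn2 and Srf span a short range.

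In the LCWE aorta, the smooth muscle cells that kept the VSMC name also kept most of the apparatus when summed as a class. Levels differed among these cells, as the split by Pln below shows. Against PBS VSMC, 1 of the 31 genes was called lower, where 2.61% of all genes measured were, and 3 were called higher, where 8.42% of all genes were. The other 27 were not called. The median gene stood at 91.2% of its PBS level, and the median of all genes at 105.9%. Myosin heavy chain Myh11 had 3586 CPM in PBS VSMC and 3014 in LCWE VSMC, a ratio of 0.840 (0.808 to 0.873). Smooth muscle α-actin Acta2 had 24435 and 20149 CPM, a ratio of 0.825 (0.812 to 0.837). The actin-binding transgelin Tagln had 15948 and 13773 CPM. In class CPM these 3 common markers of the contractile state thus differed between the libraries by at most 1.21-fold. Because an LCWE VSMC held fewer UMIs, the same ratios per cell were 0.612 for Myh11, 0.600 for Acta2 and 0.629 for Tagln. On that scale the median of all genes had a log2 ratio of -0.38. Less than 1% of UMIs lay in the 31 genes in 14 of the 93 LCWE VSMC and in 3 of the 4141 PBS VSMC. The other 79 LCWE VSMC had a median of 9122 UMIs, against 11880 in all PBS VSMC. With 1 pool per group, the part of either difference in these ratios was not tested.

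The gene called lower was Itga8, which encodes the α chain of an integrin of contractile cells. It had 1425 CPM in PBS VSMC and 658.0 in LCWE VSMC, a ratio of 0.462 (0.425 to 0.501). The ratio lay close to the 2-fold limit and was not called without the 14 cells of low contractile content, with a log2 ratio of -0.95 in place of -1.12, or without cells over 10% mitochondrial UMIs, with -0.84. The dense body protein α-actinin, encoded by Actn1, came next with 1558 and 1030 CPM, a ratio of 0.661 (0.618 to 0.706) that was not called.

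The genes called higher were Sorbs2, Actg2 and Des. Sorbs2, an adaptor that links actin to sites of adhesion, had 92.99 CPM in PBS VSMC and 577.9 in LCWE VSMC, 6.21-fold higher (5.66 to 6.81). The smooth muscle γ-actin gene Actg2 had 310.7 and 650.0 CPM, 2.09-fold higher (1.92 to 2.27). Des, the gene of the intermediate filament protein desmin, had 435.9 and 901.7 CPM, 2.07-fold higher (1.92 to 2.22). These genes were unevenly spread over cells in both libraries. The 10 highest of 93 LCWE VSMC held 64.3% of the Des UMIs and the 415 highest of 4141 PBS VSMC 52.9%, with 58.1% and 41.1% of the Actg2 UMIs, and 28.1% and 21.5% of the Myh11 UMIs. For Sorbs2 the share was lower in LCWE VSMC, with 45.7% against 66.7%. At an equal depth of 3000 UMIs per cell, 47.6% of LCWE VSMC (36.6 to 58.8) and 16.2% of PBS VSMC (15.1 to 17.4) had a Sorbs2 UMI, while the shares were 42.9% and 37.6% for Des and 46.4% and 44.9% for Actg2. Without thinning, the shares for Sorbs2 were 48.4% and 37.3%.

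Pln, the gene of the calcium pump regulator phospholamban, was used to divide the cells. It was found in 28 of 93 LCWE VSMC (30.1%, Clopper-Pearson interval 21.0 to 40.5) and in 227 of 4141 PBS VSMC (5.48%, 4.81 to 6.22). Cells with a Pln UMI were also deeper than those without in the LCWE library, with median UMIs of 12306 and 7698 and a mitochondrial share of 10.6% and 6.24%. Sorbs2 had 1267 CPM in the LCWE cells with Pln and 156.7 in those without, and the PBS cells with Pln had 346.8. Des had 1774 CPM with Pln and 368.7 without, and Actg2 1207 and 309.7. Itga8 ran the other way, with 362.1 CPM with Pln and 838.8 without. Myh11 had 4631 CPM in the LCWE cells with Pln and 2026 in those without, beside 3586 in PBS VSMC. Acta2 had 28545 and 15018 CPM, beside 24435. The class sums of these genes thus lie between 2 unlike sets of cells. All 14 cells of low contractile content were among those without Pln. Without the cells that had a Pln UMI in either library, the log2 ratio of LCWE over PBS was 1.03 for Sorbs2 in place of 2.64, 0.02 for Actg2 in place of 1.06 and -0.20 for Des in place of 1.05, so the last reversed. Without cells over 10% mitochondrial UMIs, of which LCWE VSMC had 32 of 93 and PBS VSMC 334 of 4141, Sorbs2 stood at 1.86, Actg2 at 0.73 and Des at 0.67, so the last 2 were under 2-fold there as well. Des and Actg2 were also under 2-fold without pericyte-like cells (log2 ratios of 0.61 and 0.82), as a mean of cell CPM (0.77 and 0.75) and in UMIs per cell (0.59 and 0.61), which leaves 1 gene called higher, Sorbs2. Sorbs2 was the only gene whose interval lay wholly beyond 2-fold. The Pln split was chosen after its values were seen.

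**Figure D2:**
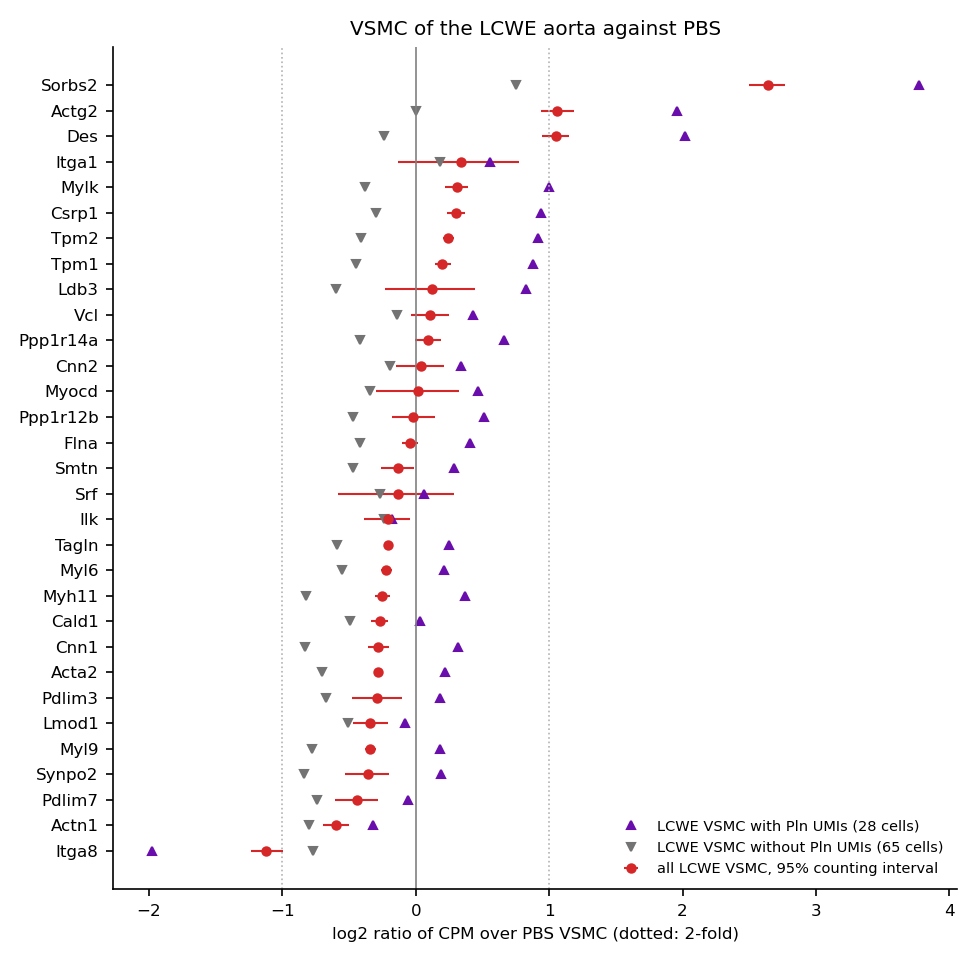
Log2 ratio of CPM in LCWE VSMC over all PBS VSMC for each of the 31 genes (rows), for the 93 LCWE cells (circles, bars are 95% counting intervals), the 28 with a Pln UMI (upward triangles) and the 65 without (downward triangles). Most genes lie within the dotted 2-fold lines, Itga8 lies at -1.12, and Sorbs2, Actg2 and Des lie above 1, with the cells that have Pln above the cells that do not.

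The transitional cells had the apparatus at a lower level across nearly all its parts. Compared with LCWE VSMC of the same library, 26 of the 31 genes were called lower, where 10.7% of all genes measured were, and 0 were called higher, where 6.93% of all genes were. The median gene kept 28.1% of its CPM in LCWE VSMC, while the median of all genes stood at 94.0%. The 5 genes not called lower were Cnn2, Cald1, Actn1, Srf and Ilk. Transitional cells held more RNA, and in UMIs per cell the picture is milder: 12 of the 31 genes were then at under 50% of LCWE VSMC, 8 stood at 100% or more, and the median was 61.0%. On that scale the median of all genes was above LCWE VSMC by 1.03 on the log2 scale. The order of the genes is the same on both scales, since the cells of a class share 1 factor.

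Myosin and its regulators stood lowest as a group, with a median of 18.4% and 6 of 6 genes called lower. Myh11, at chr16:14194535-14291372 on the minus strand (GRCm38), had 3014 CPM in LCWE VSMC, 369.1 in transitional cells, 90.2 in proliferating stroma and 1.502 in LCWE fibroblasts. Transitional cells thus kept 12.3% of it (11.6 to 13.0), or 26.7% per cell. Myl9, the regulatory light chain that the kinase phosphorylates, had 5465, 894.7, 332.4 and 20.9 CPM in the same order, which left 16.4% (15.7 to 17.0) in transitional cells. The kinase gene Mylk had 1322, 257.7, 97.7 and 26.5 CPM. Ppp1r12b, a targeting subunit of myosin phosphatase, stood at 17.3% in transitional cells, and Ppp1r14a, an inhibitor of that phosphatase, at 21.5%. Myl6, a light chain found in muscle and non-muscle myosin, had 5356, 2208, 1359 and 657.1 CPM and kept 41.2% (39.9 to 42.6).

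Thin filament genes kept a median of 32.8%, with 8 of 10 called lower. Acta2, at chr19:34241090-34255590 on the minus strand, had 20149 CPM in LCWE VSMC, 7413 in transitional cells, 2488 in proliferating stroma and 33.0 in LCWE fibroblasts, so transitional cells kept 36.8% (36.2 to 37.4) and 80.1% per cell. Acta2 was therefore kept at a higher percentage than Myh11, beyond counting error, although both are used as markers of the same state. Cnn1, which encodes calponin, an inhibitor of the myosin ATPase, had 1540, 329.9, 92.0 and 1.00 CPM. Tagln had 13773, 3355, 998.3 and 14.0 CPM, and its 24.4% in transitional cells lay between Cnn1 at 21.4% and Acta2. The tropomyosins, which lie along the actin filament, stood at 21.2% for Tpm2 and 31.3% for Tpm1. Lmod1, an actin filament nucleator, stood at 28.2% and smoothelin Smtn at 34.4%.

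The 2 thin filament genes not called lower, Cald1 and Cnn2, are also used by non-muscle cells. Cald1, the gene of caldesmon, which has a smooth muscle and a widely expressed form, had 2219 CPM in LCWE VSMC, 1447 in transitional cells, 914.7 in proliferating stroma and 376.5 in LCWE fibroblasts. It kept 65.2% (62.1 to 68.5), and 141.9% per cell; 3′ counts do not separate the forms. Cnn2, a calponin of non-muscle cells, had 292.9, 302.4, 185.0 and 64.1 CPM, or 103.2% (90.5 to 118.2) in transitional cells. Lymphocytes had a like level of Cnn2, 276.0 CPM. Actg2 kept 47.8% of its level in LCWE VSMC, but its 310.9 CPM equalled the 310.7 of PBS VSMC, and against LCWE VSMC without a Pln UMI its log2 ratio was 0.01.

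Dense body and LIM domain genes stood at a median of 25.1%, with 8 of 9 called lower. The lowest of all 31 genes, Sorbs2, had 577.9 CPM in LCWE VSMC, 60.0 in transitional cells, 41.3 in proliferating stroma and 11.1 in LCWE fibroblasts, or 10.4% (9.03 to 11.9) in transitional cells. Its place depends on the LCWE VSMC that carry Pln: set against PBS VSMC, transitional cells stood at 64.5% (57.7 to 71.9). Des shares this, at 15.5% of LCWE VSMC and 32.0% of PBS VSMC. Synpo2, which bundles actin at dense bodies, does not, with 344.4, 40.6, 12.2 and 1.502 CPM in the 4 LCWE classes, 11.8% (9.90 to 14.0) of LCWE VSMC and 9.17% of PBS VSMC. Pdlim3, a PDZ and LIM domain protein that binds α-actinin, stood at 14.7% and 12.1%. Filamin A, the actin crosslinker encoded by Flna, kept 27.4%, the LIM protein gene Csrp1 25.1% and Ldb3 28.1%. At the upper end, Pdlim7 kept 49.99% (44.0 to 56.9) and Actn1 57.9% (53.8 to 62.4).

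Adhesion genes differed among themselves. Itga8 had 658.0 CPM in LCWE VSMC, 120.3 in transitional cells, 22.5 in proliferating stroma and 1.40 in LCWE fibroblasts, or 18.3% (16.4 to 20.5) in transitional cells and 8.44% (7.82 to 9.09) of PBS VSMC, where it was the lowest of the 31. Vinculin Vcl, which ties integrins to actin, had 473.7, 219.5, 131.5 and 50.5 CPM and kept 46.3%. Integrin-linked kinase Ilk had 314.7, 164.7, 141.8 and 81.5 CPM and kept 52.3% (45.7 to 60.1). The collagen receptor chain Itga1, at 49.2 CPM in LCWE VSMC, kept 40.7% with a wide interval of 28.5 to 59.2.

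Of the transcription factors, myocardin Myocd had 101.8 CPM in LCWE VSMC, 29.0 in transitional cells and 5.64 in proliferating stroma, and LCWE fibroblasts had 1 UMI in all. It kept 28.5% (21.9 to 37.3) in transitional cells. Srf, which is present in most cell types, had 52.6, 29.9, 30.99 and 23.2 CPM, and lymphocytes had 29.9. Lymphocytes of the LCWE library had 0 Myocd UMIs, an upper limit of 0.355 CPM, so the cofactor and the factor differed in where they were found.

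**Figure D3:**
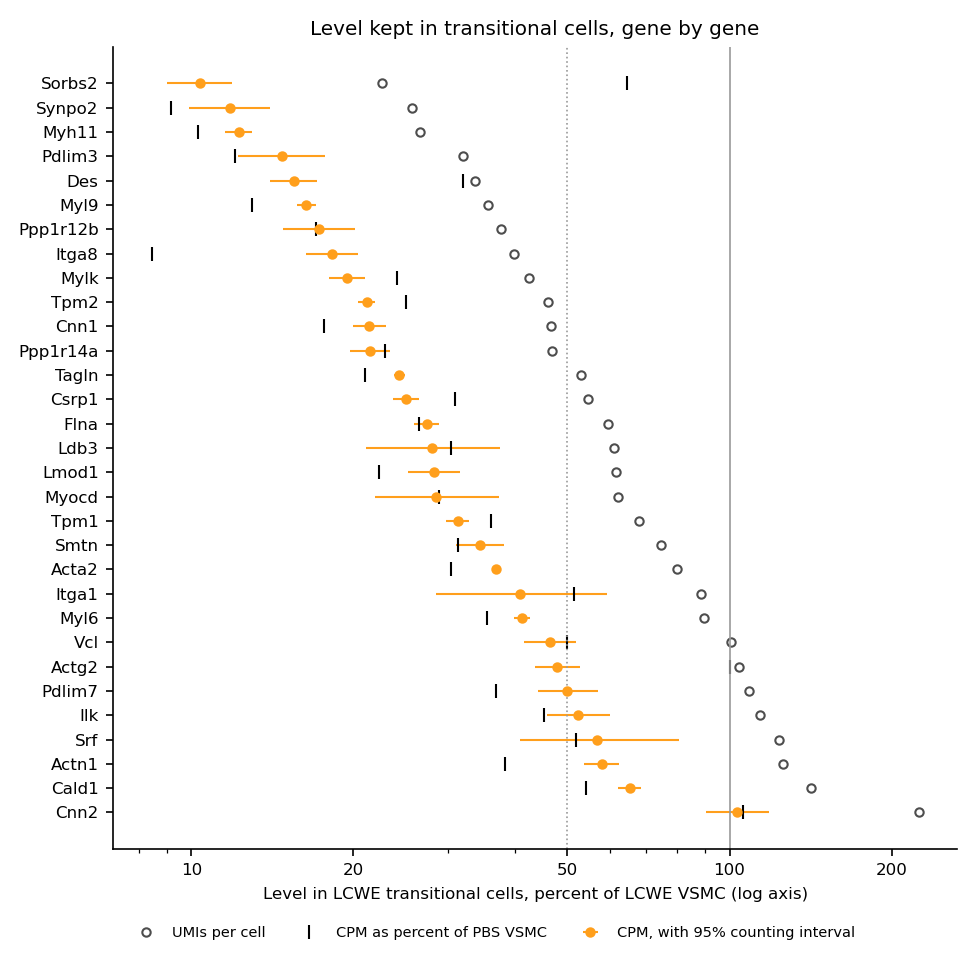
CPM in the 283 transitional cells as a percent of the CPM in LCWE VSMC for each gene (filled circles, bars are 95% counting intervals), the same in UMIs per cell (open circles), and CPM as a percent of PBS VSMC (ticks), on a log axis. Synpo2, Myh11 and Pdlim3 are low against both VSMC classes, Sorbs2 is at 10.4% of LCWE VSMC but 64.5% of PBS VSMC, and Cnn2 is at 103.2%.

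Cells of the transitional class were far from alike. The 31 genes took a median of 1.29% of a transitional cell's UMIs, with quartiles of 0.603% and 4.11% and a range from 0.204% to 11.8%. PBS VSMC had a median of 8.17% with quartiles of 7.07% and 9.34%. LCWE VSMC ranged from 0.0504% to 15.8%, median 6.82%, and 125 of the transitional cells but 3 of the 4141 PBS VSMC were under 1%. At an equal depth of 3000 UMIs per cell, which left out 1 transitional cell and 9 LCWE VSMC, a median of 13 of the 31 genes was detected in a transitional cell (quartiles 9 and 19), 23 in VSMC of either library, 7 in proliferating stroma and 3 in LCWE fibroblasts. At that depth 90.8% of transitional cells had an Acta2 UMI and 94.3% a Cald1 UMI, but 40.1% a Myh11 UMI (34.3 to 46.1) and 9.93% a Synpo2 UMI (6.70 to 14.0). The same shares in LCWE VSMC were 92.9%, 91.7%, 86.9% and 51.2%. Without thinning, the shares in transitional cells were 98.9% for Acta2, 99.7% for Cald1, 59.7% for Myh11 and 32.9% for Synpo2. In lymphocytes of the LCWE library, which had a median of 3986 UMIs, the thinned shares were 10.3% for Acta2, 3.63% for Cald1, 1.42% for Myh11 and 0.0567% for Synpo2.

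**Figure D4:**
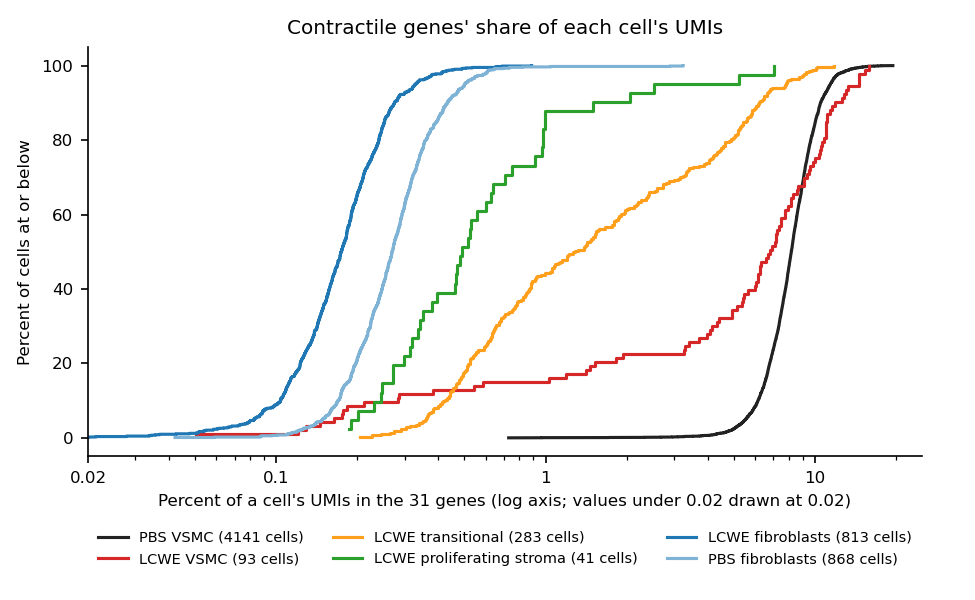
Cumulative percent of cells (vertical axis) by the percent of a cell's UMIs that fell in the 31 genes (horizontal, log axis), for 6 classes. PBS VSMC rise steeply around 8.17%, transitional cells spread from 0.204% to 11.8%, and LCWE VSMC have a lower tail that includes 14 cells under 1%.

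Ranking the 283 transitional cells by the share of their UMIs in the other 30 genes, separately for each gene, and cutting them into 4 bands of 71, 71, 71 and 70 cells, from band 1 with the highest share to band 4 with the lowest, showed which genes were lowest first. The ranking uses the members themselves and is weighted toward Acta2 and Tagln, so the downward direction of the set is fixed by it and only the differences between genes carry information. The bands are ranges of a score, not cell types. By the share of all 31 genes they reach down to 4.15%, 1.29%, 0.601% and 0.204%, with median UMIs of 16268, 19285, 24049 and 21817. In band 1, 26 of the 31 genes were at 50% or more of LCWE VSMC and 5 were at or above it. Acta2 there had 23139 CPM, close to the 24435 of PBS VSMC, but Myh11 had 1339 CPM, 44.4% of LCWE VSMC.

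From band 1 to band 2, the median gene stood at 32.8% of its level. The lowest were Pdlim3 at 16.7% (11.3 to 24.1), Cnn1 at 18.6% (16.4 to 20.9), Sorbs2 at 21.9% (16.1 to 29.3), Myh11 at 21.9% (19.6 to 24.4) and Itga8 at 23.5% (19.3 to 28.3). Myocd was at 25.3% with an interval of 16.7 to 37.3, which overlaps them. Acta2 and Tagln were at 32.5% (31.8 to 33.3) and 32.1% (31.1 to 33.2), above Cnn1 and Myh11 beyond counting error. The highest were Cald1 at 73.0%, Pdlim7 at 69.4%, Cnn2 at 68.6%, Ilk at 67.5% and Myl6 at 59.8%. Giving each gene equal weight in the ranking kept 5 of the 5 lowest and 4 of the 5 highest genes of this step.

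By band 4 the genes spanned from 0.210% to 45.1% of band 1. Cnn1 had 1264, 234.7, 18.6 and 2.66 CPM from band 1 to band 4. Myh11 had 1339, 293.3, 43.7 and 9.92 CPM, and Itga8 431.5, 101.2, 14.4 and 1.99. Each of these 3 was under 1% of band 1 in band 4, though on few UMIs. Cnn1 stood at 0.210% (0.0572 to 0.539) on 4 UMIs and Itga8 at 0.462% (0.0949 to 1.36) on 3. Myh11 stood at 0.741% (0.414 to 1.23) on 15 UMIs, and Pdlim3 was under 1% too, with 1 UMI. Only the interval of Cnn1 lay wholly under 1%, and with equal weights in the ranking Itga8 stood at 1.09%. Acta2 had 23139, 7521, 1778 and 601.4 CPM, so band 4 still held 2.60% (2.43 to 2.77) of it. Srf, Cald1, Pdlim7 and Ilk were at 45.1%, 44.9%, 44.8% and 41.1%. In PBS fibroblasts these same genes stood at 41.9%, 11.4%, 18.1% and 30.4% of PBS VSMC. Cnn1, Itga8, Myh11 and Pdlim3 stood at 0.923%, 2.68%, 0.898% and 6.89% there. PBS fibroblasts had 17.3 CPM of Cnn1 and 32.2 of Myh11, below the 24.6 and 49.2 of PBS lymphocytes. In LCWE fibroblasts Cnn1, Itga8, Myh11 and Pdlim3 stood at 0.065%, 0.213%, 0.050% and 0.482% of LCWE VSMC. Srf, Cald1, Pdlim7 and Ilk stood at 44.1%, 17.0%, 24.5% and 25.9% in LCWE fibroblasts. The part of such fibroblast levels in the order of the bands was not tested. The median of the 31 was 7.60%, and with equal weights the same 5 genes were lowest and the same 5 highest. Beside these values, Lum had 1792, 3661, 4499 and 5051 CPM and Dcn 662.0, 2030, 3333 and 4140 over the bands, and the pericyte and smooth muscle gene Rgs5 4167, 1193, 728.7 and 494.0. The part of mixed cells or free RNA in this order was not tested.

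**Figure D5:**
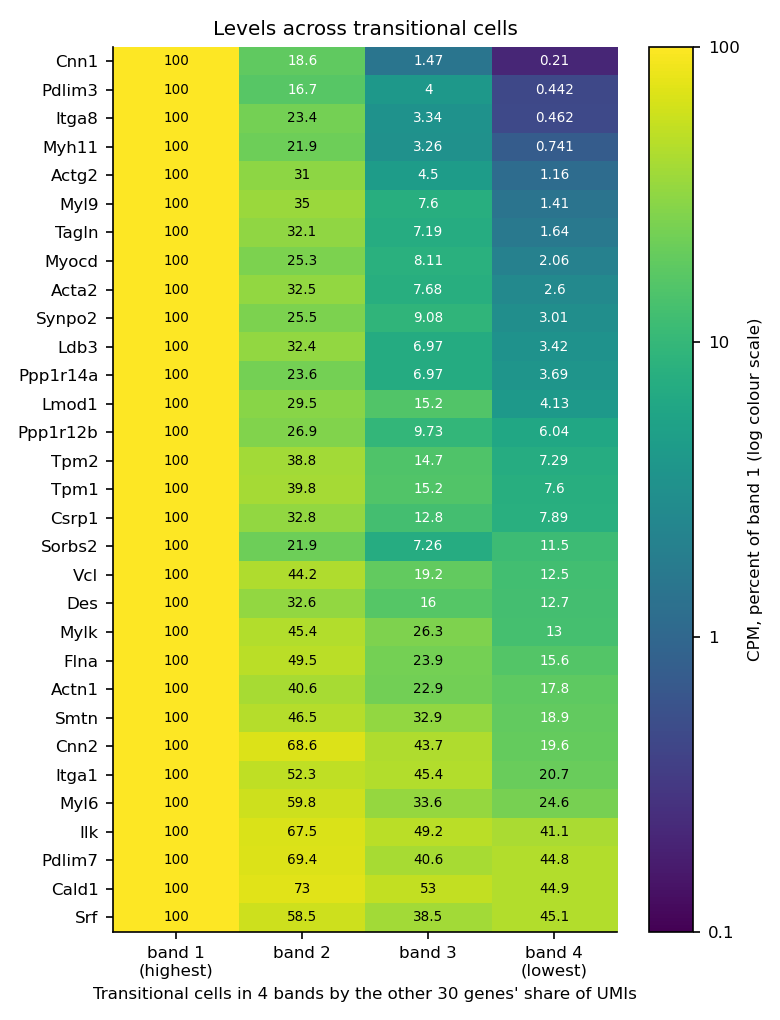
CPM of each gene in 4 bands of transitional cells, as a percent of band 1 (numbers in the cells; colour on a log scale), with genes sorted by band 4. Cnn1, Pdlim3, Itga8 and Myh11 end under 1%, Acta2 at 2.60%, and Ilk, Pdlim7, Cald1 and Srf above 40%.

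Genes that work beside the apparatus were counted from 4 lists, against the 10.7% of all genes called lower and the 6.93% called higher in this comparison. In transitional cells against LCWE VSMC, 14 of 17 measured genes of the calcium, cGMP and RhoA pathway were called lower and 0 higher, with a median of 35.2%. Rock1, the kinase through which RhoA restrains myosin phosphatase, stood at 0.303 of its level (0.271 to 0.340) and Calm2, a calmodulin gene, at 0.494 (0.456 to 0.535), while Rhoa at 1.17 was not called. Of 24 focal adhesion and actin partner genes, 12 were called lower and 0 higher, with a median of 49.9%. Dstn, the gene of destrin, which disassembles actin filaments, stood at 0.244 of its level (0.233 to 0.257) and the LIM gene Fhl1 at 0.427. The integrin β chain gene Itgb1 at 0.585 and cofilin Cfl1 at 1.04 were not called. Of 11 cytoplasmic actin and myosin genes 0 were called lower, 2 were called higher and 9 were not called, with a median of 139.6%. Among those called higher was Tpm4, a non-muscle tropomyosin gene (257.5 CPM in LCWE VSMC, 732.2 in transitional cells), named after its values were seen. Actb, the most abundant of that list, had 7980 and 5771 CPM, a ratio of 0.723, and Actg1 2751 and 3266 CPM. Actn4, a non-muscle α-actinin, stood at 0.510 and the light chain gene Myl12a at 1.67, neither of them called. Among 14 measured regulators of the contractile genes 2 were called lower and 0 higher, with a median of 85.4%, so the count was near the share of all genes. Those called lower were the Notch receptor Notch3 (191.1 and 57.6 CPM) and its target Heyl (97.3 and 27.1 CPM), also named after their values were seen. Klf4, a repressor of contractile genes, had 223.1 and 197.2 CPM. Not called were Mef2c, Mef2a and Gata6, at 0.545, 0.952 and 1.42 of their CPM in LCWE VSMC.

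The same lists were close to their control level in LCWE VSMC. Against PBS VSMC their medians were 95.1%, 95.8%, 88.8% and 115.0% in the order above. Among the lists Pln had the largest ratio, with 6.45 CPM in PBS VSMC and 260.9 in LCWE VSMC. Calls were made for 1 of 17, 2 of 24, 2 of 11 and 1 of 15 genes in either direction, where 2.61% of all genes were called lower and 8.42% higher, so these counts were near the background.

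Proliferating stromal cells stood below the transitional cells for most of the set. Here 18 of 31 genes were called lower, where 4.54% of all genes measured were, and 0 higher, where 10.3% of all genes were. The median gene stood at 41.8% of transitional cells, against 108.7% for all genes. Against LCWE VSMC 22 of the 31 genes were under 20% and the median was 11.7%. The share of all genes under 20% was not counted. Des had the lowest ratio to transitional cells, at 16.1% (10.3 to 24.2), followed by Lmod1 at 18.5% and Itga8 at 18.7%. Myocd stood at 19.4% on 6 UMIs. Srf at 103.7%, Itga1 at 93.7%, Pdlim7 at 90.2% and Ilk at 86.1% were not called.

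A few of the 41 cells held most of the Myh11 and Acta2 UMIs, although 38 cells had an Acta2 UMI, 33 a Tpm2 UMI and 31 a Tagln UMI. The 2 cells with the highest share, which had 5.21% and 7.02% of their UMIs in the set, held 36.2% of all UMIs of the 31 genes, 51.7% of Acta2 and 61.5% of Myh11. With the 5 highest cells these values were 53.6%, 73.2% and 94.8%. The class level of Myh11 thus describes a few cells, and 8 of the 41 had a Myh11 UMI at all. Sorbs2 was spread wider, in 19 of 41 cells. Endothelial markers summed to 538.1 CPM in this class and cycling markers to 1072, and the PBS library had only 15 such cells.

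Fibroblasts of the LCWE aorta formed the far end of the series. Of the 31 genes 30 were called lower than in transitional cells, where 9.69% of all genes measured were, and 0 higher, where 14.8% of all genes were. The median gene stood at 8.90%, against 104.7% for all genes. Myh11, Acta2, Tagln and Cnn1 stood at 0.407%, 0.445%, 0.418% and 0.304% of transitional cells. Pdlim7 at 49.1% and Ilk at 49.5% were just past the limit for a call, and Srf at 77.7% was not called. For 11 of the 31 genes, among them these 4, CPM in LCWE fibroblasts was at or below that of lymphocytes in the same library. In UMIs per cell this held for 1 gene, Cnn2, with Acta2 at 0.405 UMIs per fibroblast and 0.184 per lymphocyte and Tagln at 0.172 and 0.108. Cald1 was not among them, with 376.5 CPM in fibroblasts and 11.0 in lymphocytes. Vcl had 50.5 and 7.22 CPM, and Pdlim7 87.8 and 15.8.

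The gap between both ends existed in the control aorta as well. All 31 genes were called lower in PBS fibroblasts than in PBS VSMC, where 13.1% of all genes were, with a median of 4.02%. Myh11 stood at 0.898% and Cald1 at 11.4% there. In the LCWE library, the same step from VSMC to fibroblasts left a median of 1.92%, and 20 of the 31 genes were under 5%. The share of all genes under 5% was not counted. CPM was at or below that of lymphocytes for 14 of the 31 genes in PBS fibroblasts and for 11 in LCWE fibroblasts. The medians of both libraries are therefore not read as gaps of different size.

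Between the fibroblasts of both libraries, 11 of 29 measured genes were called lower in the LCWE library, where 7.08% of all genes were, and 1 higher, where 9.91% were. Myocd and Ldb3 had too few UMIs, under 20 in both classes together. The 11 were Myh11, Acta2, Tagln, Cnn1, Lmod1, Mylk, Synpo2, Myl9, Pdlim3, Itga8 and Ppp1r14a. Myh11 had 32.2 CPM in PBS and 1.502 in LCWE fibroblasts, and Acta2 272.2 and 33.0. For both genes lymphocytes showed a like gap, with 49.2 and 3.66 CPM of Myh11 and 346.8 and 38.9 of Acta2, in a PBS library that was mostly VSMC. In CPM, PBS fibroblasts lay below PBS lymphocytes for Myh11, Acta2, Tagln and Cnn1. They lay above them for Lmod1, Mylk, Synpo2, Myl9, Pdlim3, Itga8 and Ppp1r14a. Pdlim3 had 22.7 CPM in PBS fibroblasts and 2.46 in PBS lymphocytes, on 1 UMI, and Ppp1r14a 40.1 and 4.92. Per cell, PBS fibroblasts had 1.91 Acta2 UMIs and PBS lymphocytes 1.88. Subtracting the lymphocytes' UMIs per cell left 6 genes called lower, in place of 11, and gave 14 called higher, in place of 1. The share of all genes called after this subtraction was not counted. Acta2 and Tagln reversed to log2 ratios of 3.0 and 0.44, but little of them was left in PBS fibroblasts (for Tagln 0.914 UMIs per cell, against 0.867 in lymphocytes). Cnn1 had 0.121 UMIs per PBS fibroblast and 0.133 per PBS lymphocyte, so nothing was left. Its log2 ratio of 0.83 rests on raising a sum of 0 to a floor of 3 UMIs and is not a measured ratio. No change of these 3 genes in fibroblasts can therefore be read from the counts.

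The gene called higher was again Sorbs2, with 6 UMIs (0.986 CPM) in PBS fibroblasts and 111 (11.1 CPM) in LCWE fibroblasts, 11.3-fold higher (5.02 to 31.4). Lymphocytes of the LCWE library had 0.867 CPM of Sorbs2, so its level in LCWE fibroblasts lay above that background. It was also higher in LCWE than in PBS endothelial cells, with 127.3 and 55.2 CPM. Cald1 (304.7 CPM in PBS, 376.5 in LCWE fibroblasts), Flna, Tpm1 and Vcl differed by at most 1.24-fold in CPM between the libraries. LCWE fibroblasts held more UMIs, and the median of all genes was higher per cell by 0.85 on the log2 scale. In UMIs per cell 10 of the 29 genes were called lower and 4 higher, with Cald1 at 2.14 in PBS and 4.62 in LCWE fibroblasts, Tpm1 at 0.635 and 1.32 and Vcl at 0.305 and 0.620, beside Sorbs2. The share of all genes called on that scale was not counted. With the median of all genes raised as well, these calls are not read as a result about the set.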

How the data were processed

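Single-cell 3′ libraries (10x Genomics reagents, version 3) of 1 pool of LCWE and 1 pool of PBS aortas were processed by the authors with Cell Ranger 3.0.2 against mm10, per the submitters' processing notes. The deposited matrix gives UMI counts that were not normalized. Each cell also came with the percent of mitochondrial UMIs and a doublet score, per the file headers, and with the authors' class names. All 10477 listed cells were kept, none of them called dead or a doublet by the authors, and no doublet caller was run. Gene positions come from GENCODE vM21. In the 31 genes, 324787 entries were compared with the tables of the single libraries and 0 differed. The LCWE library held 42275754 UMIs in 5091 cells and the PBS library 62600808 in 5386.

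UMIs were summed per class and library (Python 3.11.15, numpy 2.4.6, scipy 1.17.1, pandas 2.3.3). CPM carry exact Poisson intervals, ratios exact conditional binomial intervals and shares Clopper-Pearson intervals, all at 95%. PCR duplicates are removed by the UMI, and 3′ counts need no scaling by gene length. Genes needed 20 UMIs or more over the 2 classes to be measured. Cells were thinned to 3000 UMIs (2000 as an alternative) where shares were compared. The calls were tried on simulated Poisson class sums, which share the counting model of the intervals and lack the spread between cells. Such a trial cannot show how the calls behave under that spread.

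All 31 genes were to be named, and of the calcium, cGMP and RhoA pathway, focal adhesion and actin partners, cytoplasmic actin and myosin, and regulator lists up to 4 genes with the most UMIs. Some genes of these lists are not reported here by name. The members and lists were chosen with earlier results of these data known. The role groups, the 4 bands of transitional cells, the Pln split and the alternatives with UMIs per cell, lymphocyte UMIs per cell subtracted, and cells left out for lymphocyte markers, low contractile content, Pln or Pecam1 were added after seeing the data.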

Additional observations from a re-analysis of the deposited data

How the results depend on the processing

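No paired analysis was possible because each group is 1 pooled library. With no replicates, spread between animals is unknown and depth limits genes such as Myocd, Ldb3 and Itga1 most.

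Of 1612 values per gene and alternative, 868 moved by less than their counting interval, 732 by more and 12 reversed. Itga8, the 1 gene called lower in LCWE VSMC, gave 0 called genes without cells over 10% mitochondrial UMIs, without the 10% of cells with the highest doublet score, with an interval wholly beyond 2-fold, and without cells with lymphocyte markers, under 1% contractile UMIs or with Pln; UMIs per cell, with or without lymphocyte UMIs subtracted, gave 2. The 26 genes lower in transitional cells became 12 on both per-cell scales, where Actg2, Vcl and Pdlim7 reversed to log2 ratios of 0.06, 0.01 and 0.12, and Actg2 reached 0.01 without Pln cells. Des reversed to -0.20 in LCWE VSMC without Pln cells. The 3 genes called higher there became 1 without high-mitochondrial, pericyte-like or Pln cells, as a mean of cell CPM, on both per-cell scales and with an interval wholly beyond 2-fold.

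For fibroblasts of both libraries, 11 genes called lower became 6, and 1 called higher became 14, with lymphocyte UMIs per cell subtracted. The share of all genes called was not counted for the alternatives. Acta2 and Tagln reversed to 3.0 and 0.44 on small remainders in PBS fibroblasts. Cnn1 is listed as reversed to 0.83, but nothing of it was left in PBS fibroblasts and its sum was raised to the floor of 3 UMIs. With lymphocyte CPM subtracted, Cnn2 is listed as reversed to 3.14 in PBS fibroblasts against PBS VSMC. Both classes lie below the PBS lymphocytes, so nothing was left in either and both sums were raised to the floor of 3 UMIs. The 3.14 reflects only the UMI totals of the classes and is not a measured ratio. Thinning to 2000 UMIs moved the members per transitional cell from 13 to 11 and the median share of cells with a UMI from 38.7% to 33.9%.

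The median level kept in transitional cells, 28.1%, became 29.6% without high-mitochondrial cells, 26.6% with CPM computed without the 31 genes, 35.7% as a mean of cell CPM, 24.2% with lymphocyte CPM subtracted, 24.9% without high doublet scores, 29.7% without pericyte-like cells, 61.0% on both per-cell scales, 24.8% without cells with lymphocyte markers, 25.01% without cells under 1%, and 37.9% without Pln cells. Synpo2, Myh11 and Pdlim3 stayed among the 5 lowest in all of these, Sorbs2 and Des did not. Srf moved from among the 5 highest to the lowest place with lymphocyte CPM subtracted. Its level was 56.8% of LCWE VSMC in transitional cells and 56.7% in lymphocytes, so next to nothing was left. The causes were not tested.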
